A study of Mus musculus with 12 samples.

Results

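The cytosolic ribosomal protein genes of denervated mouse muscle are described here through 89 genes of the 25094 listed in each of 2 expression tables. They were taken by symbol: names starting with Rpl or Rps and a number, with Rpsa and with Rplp0, Rplp1 and Rplp2, leaving out 10 Rps6k kinase genes and 6 symbols marked as pseudogenes with -ps. The same 89 symbols were found in both tables, and 85 of them were listed with the same transcript. Of the 89, 77 encode core subunits, 46 of the large and 31 of the small subunit. The other 12 are paralogues, retrogenes and other copies, among them the muscle paralogue Rpl3l, and Rps19bp1, which encodes a binding protein and no subunit. Rpl10l and Rpl39l averaged under 0.1 RPKM (reads scaled by transcript length and by the reads of the library) over the 6 libraries of each strain and were not tested, which left 87 tested genes in each strain.

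Poly(A) RNA of the gastrocnemius, a calf muscle, was sequenced in male wild-type (WT) mice of 2 inbred strains, C57BL/6 and BALB/c. The 4 groups of 3 libraries were the right and the left leg of C57BL/6 and the right and the left leg of BALB/c. In the right legs, labelled as denervated and atrophied, the sciatic nerve had been cut and its ends turned over and sutured to muscle 2 weeks before the muscle was taken. The left legs are labelled as healthy. The protocol also speaks of sham surgery, and no label says whether left legs had it. The labels give neither the age of the mice nor whether a group's libraries are from different animals, so p-values reflect the scatter of these libraries, part of which may be technical. Each change is the right leg minus the left leg in log2(RPKM + 0.5), where the added constant makes changes of low genes look smaller. Calls were made with limma, a linear model fitted to all tested genes, where the Benjamini-Hochberg adjusted p over all of them lay below 0.05.

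A cytosolic ribosome joins a small subunit, which reads the messenger RNA, to a large subunit, which forms the peptide bonds. Each core protein is, as a rule, present once per ribosome, and cells make the proteins in matched amounts along with ribosomal RNA. The messages of vertebrate ribosomal proteins start with a run of pyrimidines, the terminal oligopyrimidine (TOP) tract, through which their translation follows growth signals. RPL3 lies close to the peptidyl transferase centre of the large subunit. Adult skeletal muscle and heart use in its place the paralogue RPL3L, which is found in few other tissues.

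The starts of ribosomal protein genes were read from the RefSeq promoter table (build GRCm38.p6), which held 68 of the 89 genes. A run of at least 8 bases that were all C or T, on the coding strand and within 25 bases of the annotated start, was found in 30 of the 57 core subunit genes with an entry, or 52.6%, against 22.3% of all 27025 genes in the table. The letters CCGGAAG, which hold the core of binding sites for ETS factors, stood on either strand between 250 bases before and 50 bases after the start in 42.1% of the core genes, against 9.93% of all genes. The letters CAGCTG, an E-box of the kind that muscle transcription factors bind, stood in the same window in 3.51% of the core genes, against 18.3% of all genes. The windows below run from 45 bases before to 15 bases after a start. The capitals mark the pyrimidine run at the start of 4 genes chosen because they have one, and in Rpl3l, the member that fell, the letters CAGCTG.
Rpl38, chr11:114668535-114668594, plus strand: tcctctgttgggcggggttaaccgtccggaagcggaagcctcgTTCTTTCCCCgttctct
Rpl13a, chr7:45128731-45128790, minus strand: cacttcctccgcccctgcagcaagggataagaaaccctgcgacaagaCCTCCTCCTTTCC
Rps26, chr10:128626492-128626551, minus strand: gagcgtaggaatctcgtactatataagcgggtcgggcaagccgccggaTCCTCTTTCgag
Rpl4, chr9:64173342-64173401, plus strand: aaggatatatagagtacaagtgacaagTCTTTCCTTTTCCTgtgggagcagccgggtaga
Rpl3l, chr17:24727781-24727840, plus strand: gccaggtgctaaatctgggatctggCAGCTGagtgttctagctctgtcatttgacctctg
RefSeq gives Rpl3l 2 starts, and the upstream one is shown. The letters CAGCTG stood in the window of the upstream start and not in that of the other. Neither start of Rpl3l had a run of 8 C or T within 25 bases. A match is a description of the letters and says nothing about binding, and the messages' own start sites were not measured here.

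The totals used for scaling, estimated from the values themselves, were 18132600 to 19282800 reads per library. With these totals, 14826932 to 17323390 reads lay in listed genes. Libraries of the right legs differed from those of the left in make-up. The 10 highest genes held 25.7% to 26.3% of the summed RPKM in right legs of C57BL/6, against 46.6% to 48.1% in left legs, and 22.8% to 25.3% in right legs of BALB/c, against 35.66% to 44.97% in left legs. The median tested gene was 0.52 higher on the log2 scale in right legs of C57BL/6 and 0.38 higher in right legs of BALB/c. Results are therefore also given after rescaling each library by its median ratio to the other libraries of its strain (median-of-ratios), which brought the median gene to 0.02 in both strains. In 2 libraries of BALB/c, right replicates 1 and 2, erythroid markers summed to 12470 and 27118 RPKM, against 399 RPKM in right replicate 3 and 239 to 1848 RPKM in the left legs.

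Nearly every ribosomal protein gene rose in the denervated leg, in both strains. In C57BL/6, 86 of the 87 tested members were higher in the right leg and 1, Rpl3l, was lower, where 63.6% of all tested genes were called higher and 8.56% lower. In BALB/c, 83 were higher and 1, again Rpl3l, was lower, where 42.5% of all tested genes were higher and 7.67% lower. The median member changed by 1.47 in C57BL/6 and by 1.80 in BALB/c, which is 0.95 and 1.42 above the median tested gene of each strain. After rescaling, 78 members were higher and 2 lower in C57BL/6, where the background was 28.2% higher and 26.4% lower, and the median member changed by 0.76. After rescaling, 78 were higher and 1 lower in BALB/c, where the background was 21.8% and 19.0%, and the median member changed by 1.28. The members not called on that scale, named after their values were seen, were Rpl17, Rpl22l1, Rpl36, Rpl36al, Rpl7l1, Rps27l and Rps4l in C57BL/6 and Rpl15, Rpl21, Rpl22l1, Rpl29, Rpl32l, Rpl35a, Rpl7l1 and Rps4l in BALB/c. In bulk muscle, a change in the number of cells of a type and a change in RNA per cell cannot be told apart.

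**Figure D1:**
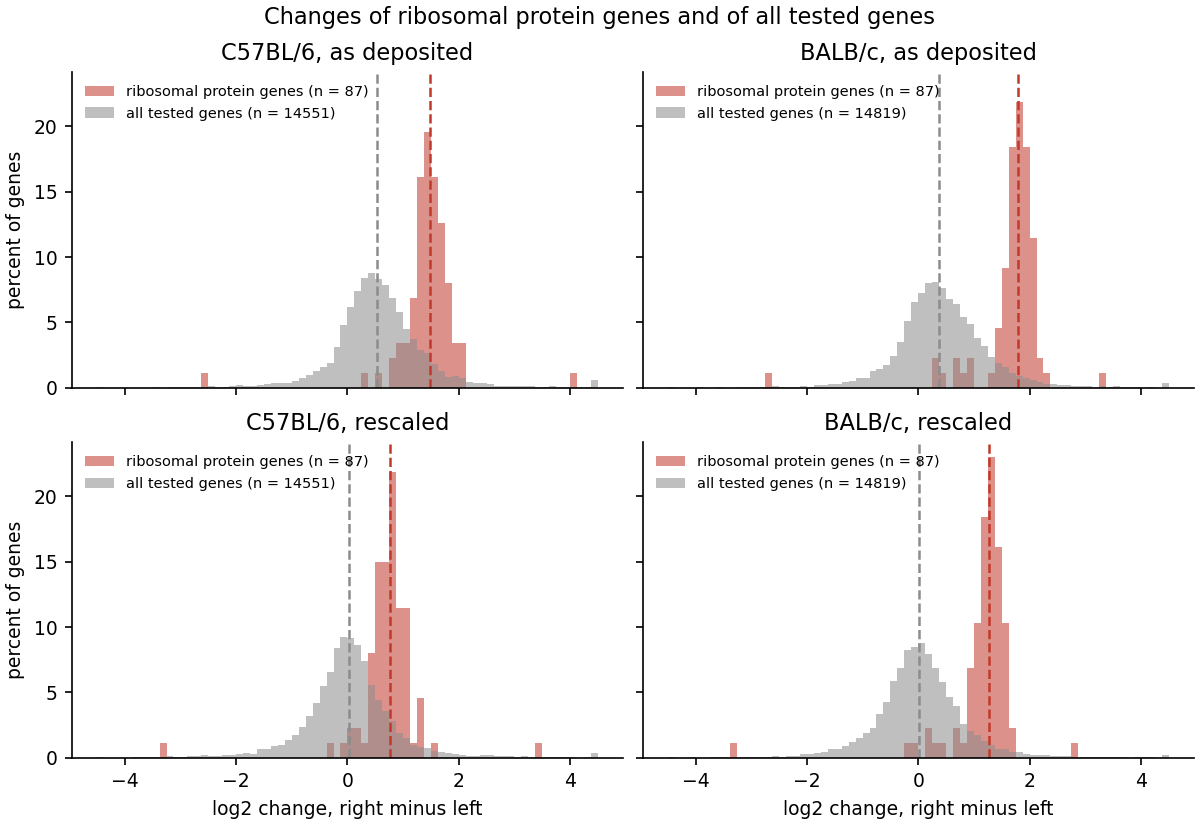
Histograms of log2 change (right minus left) for the 87 tested ribosomal protein genes in red and all tested genes in grey, as a percent of each set, with dashed lines at the medians; upper panels are as deposited, lower panels are rescaled, and changes beyond the axis are counted in the outer bins. The members form a narrow peak to the right of the background, with medians of 1.47 in C57BL/6 and 1.80 in BALB/c as deposited and of 0.76 and 1.28 rescaled, and Rpl3l and Rpl3 stand apart on either side.

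The members moved as a narrow block. The interquartile range of the member changes was 0.34 log2 units in C57BL/6 and 0.29 in BALB/c, against 0.80 and 0.87 over all tested genes. All 3 right libraries lay above all 3 left libraries for 86 members in C57BL/6, where 66.2% of all tested genes did so, and all 3 lay below for 1 member, where 9.57% did. In BALB/c the right libraries lay above the left for 84 members against a background of 48.1%, and below for 1 against 10.4%. The legs overlapped in BALB/c for Rpl22l1 and for Rps4l, named after its values were seen. As deposited, 79 members in C57BL/6 and 78 in BALB/c reached a log2 change of at least 1. The shares of all tested genes that reached it were 22.8% and 19.0%. After rescaling, it was reached by 17 members in C57BL/6, beside 1155 of 14551 tested genes. In BALB/c it was then reached by 71 members, beside 1243 of 14819 tested genes.

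**Figure D2:**
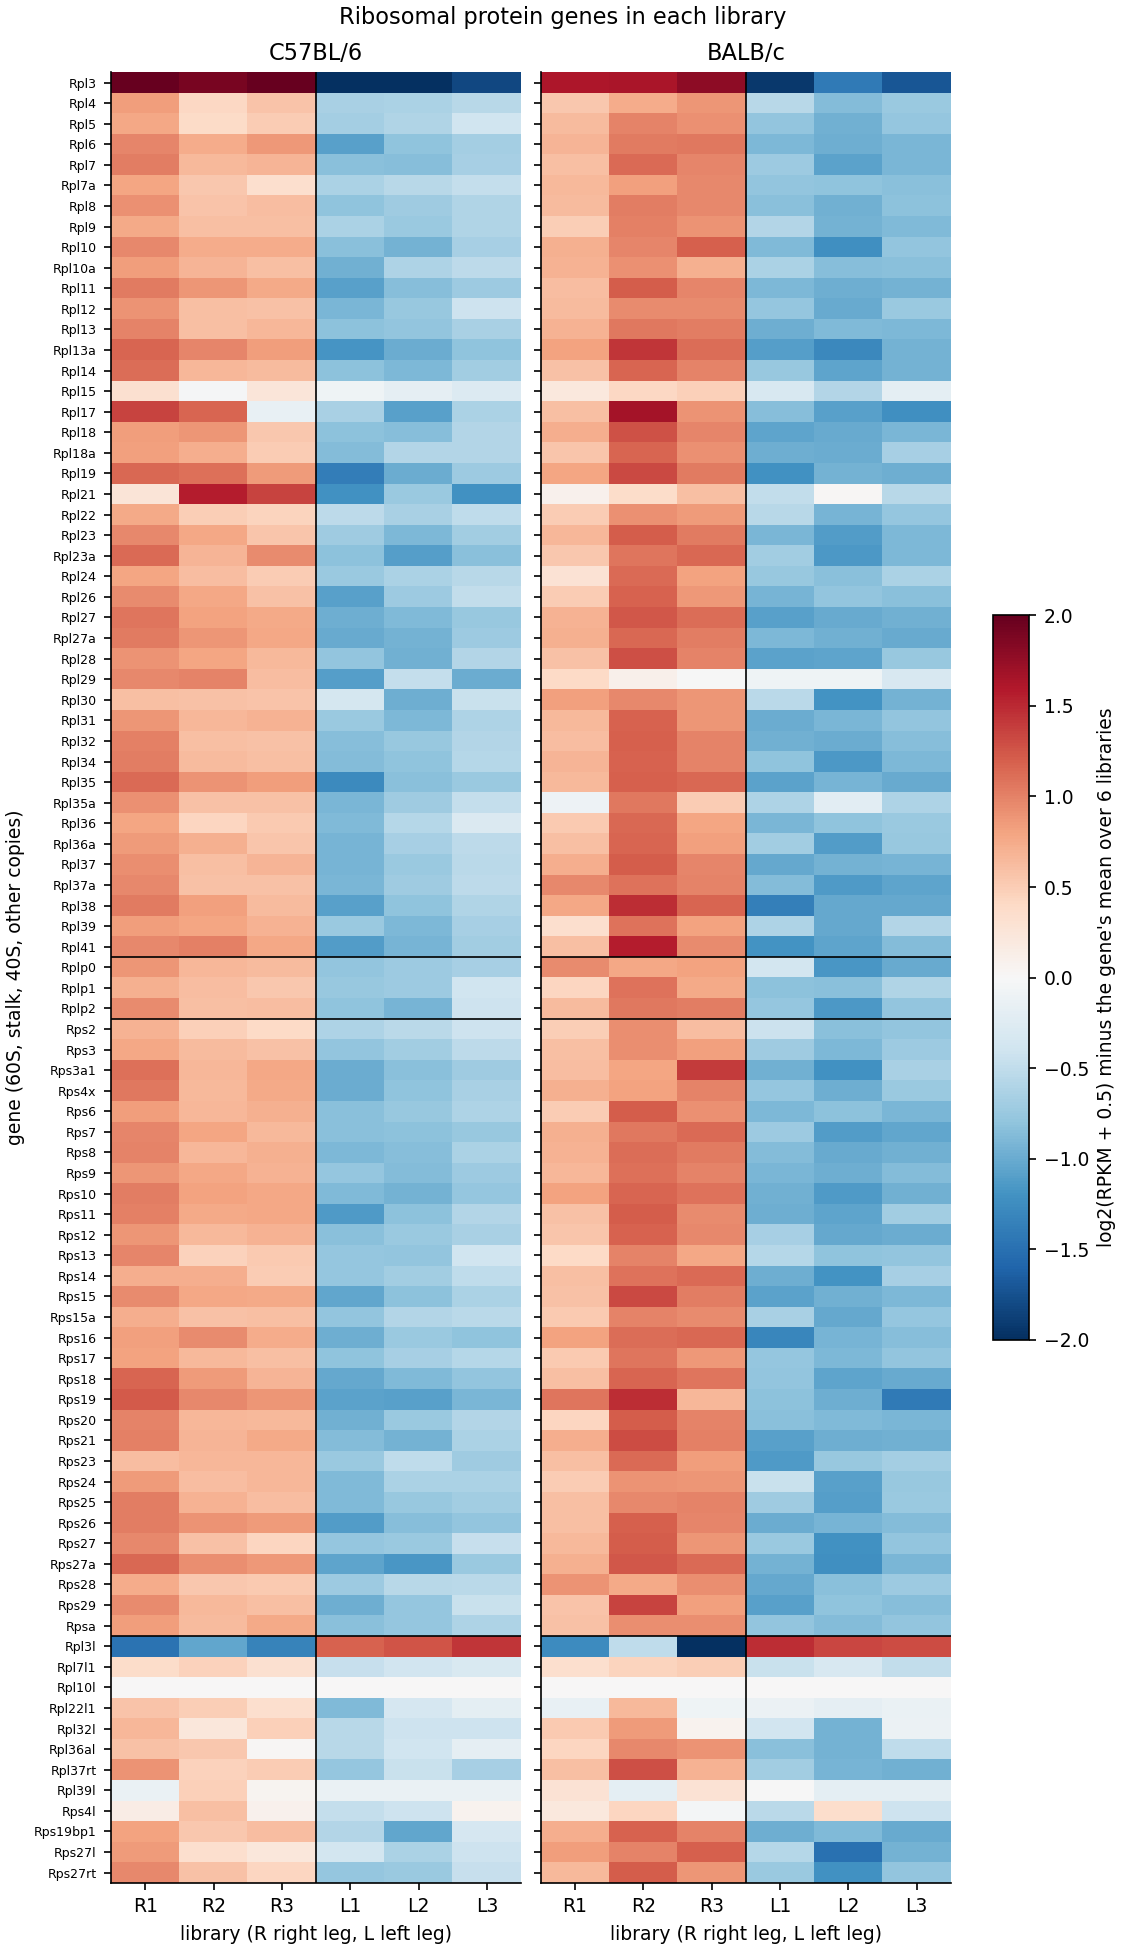
Heat map of ribosomal protein genes (rows: large subunit, stalk, small subunit, then other copies) in each library (columns: R right leg, L left leg), coloured by log2(RPKM + 0.5) minus the gene's mean over the 6 libraries of its strain, with colours capped at the ends of the scale. Most rows are red on the right-leg side and blue on the left-leg side, and Rpl3l is reversed.

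As a share of the listed expression, the members held 4.54% ± 0.411 of the summed RPKM in right legs of C57BL/6 and 1.66% ± 0.122 in left legs (SD, n = 3 each). In BALB/c they held 4.77% ± 0.518 in right legs and 1.65% ± 0.0235 in left legs (SD, n = 3 each). The ranges did not overlap: right legs held 4.30% to 5.02% in C57BL/6 and 4.20% to 5.21% in BALB/c, against 1.53% to 1.77% and 1.63% to 1.68% in left legs. As a share of reads in genes, which is not divided by length, they held 1.70% to 2.03% in right legs of C57BL/6, against 0.649% to 0.771% in left legs, and 1.67% to 2.26% in right legs of BALB/c, against 0.660% to 0.714% in left legs. The median member stood at 181, 158 and 155 RPKM in the right libraries of C57BL/6, against 54.0, 56.5 and 64.0 RPKM in the left ones. In BALB/c it stood at 163, 213 and 204 RPKM in the right libraries, against 55.2, 53.1 and 53.8 RPKM in the left ones. Means above 100 RPKM were reached by 56 members in right legs of C57BL/6, against 25 in left legs, and by 62 in right legs of BALB/c, against 22 in left legs.

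Both subunits took part. Of the 46 large subunit genes, all were called higher in C57BL/6, with a median change of 1.50, and 45 in BALB/c, with a median of 1.80. Of the 31 small subunit genes, all were called higher in both strains. Their medians were 1.53 in C57BL/6 and 1.82 in BALB/c, with ranges of 1.04 to 2.04 and 1.36 to 2.15. After rescaling, all 31 small subunit genes were called higher in both strains. Of the 46 large subunit genes, 43 were then called higher and 1 lower in C57BL/6, and 42 higher and 0 lower in BALB/c. Over all tested genes, 63.6% were called higher in C57BL/6 and 42.5% in BALB/c as deposited, and 28.2% and 21.8% after rescaling. Among those not called in BALB/c, Rpl21, Rpl29 and Rpl35a averaged only 0.998, 0.271 and 1.14 RPKM in right legs. Rpl35a, listed with another transcript in each table, had 5, 16 and 10 reads in those libraries. The difference between the subunits was not tested.

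The largest contrast in the family was between Rpl3l and Rpl3. Rpl3l fell and Rpl3 rose, in both strains. In left legs the muscle paralogue was far above the general form, and in right legs the levels of both were close. Rpl3l is listed on the plus strand of chromosome 17 from 24864774 to 24873094, and Rpl3 on the minus strand of chromosome 15 from 79908211 to 79913836, both in mm9, the annotation named in the file headers. The listed transcripts are of like length, 1360 and 1349 bases, and their longest open reading frames were 73.7% identical over 1212 aligned bases.

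In C57BL/6, Rpl3l stood at 57.4, 77.3 and 62.8 RPKM in right legs, against 361, 385 and 430 RPKM in left legs. Each right library was below each left library, and the change was -2.57 ± 0.12 (SE, adjusted p = 3.6e-06 by limma). In BALB/c, Rpl3l stood at 62.2, 106 and 29.2 RPKM in right legs, against 419, 380 and 370 RPKM in left legs. The right legs of BALB/c were more uneven than those of C57BL/6, but all lay below the left legs, and the change was -2.74 ± 0.40 (SE, adjusted p = 8.5e-04 by limma).

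Rpl3 moved the other way. It stood at 87.5, 68.5 and 73.1 RPKM in right legs of C57BL/6, against 3.79, 3.52 and 4.72 RPKM in left legs, a change of 4.09 ± 0.13 (SE, adjusted p = 7.6e-07 by limma). In BALB/c it stood at 57.7, 58.6 and 65.5 RPKM in right legs, against 4.51, 6.66 and 5.30 RPKM in left legs, a change of 3.36 ± 0.16 (SE, adjusted p = 9.8e-06 by limma). The right and left ranges were far apart in both strains, and no other member had a change above 2.27. Rescaled, Rpl3l still fell, by 3.29 and 3.26, and Rpl3 still rose, by 3.41 and 2.86, in C57BL/6 and BALB/c.

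**Figure D3:**
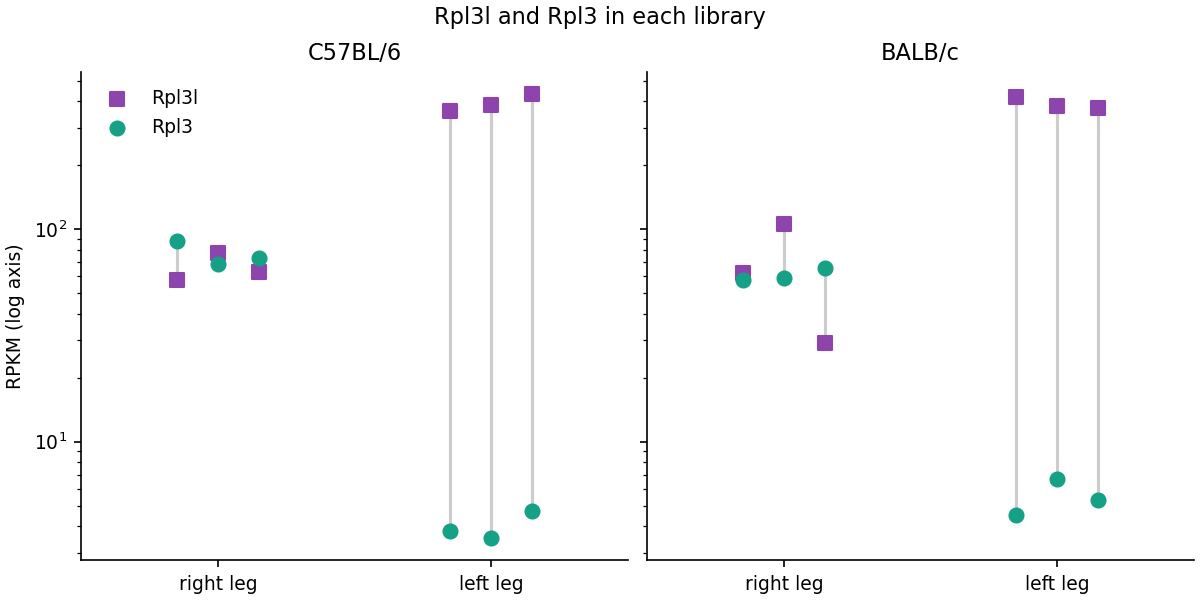
RPKM (log axis) of Rpl3l (purple squares) and Rpl3 (green circles) in each of the 3 libraries per leg and strain, with a line joining the values of 1 library. In left legs Rpl3l lies between 361 and 430 RPKM and Rpl3 between 3.52 and 6.66 RPKM, while in right legs both lie between 29.2 and 106 RPKM.

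The ratio of Rpl3l to Rpl3 within a library does not depend on how the library was scaled. It was 0.656 to 1.13 in right legs of C57BL/6, against 91.1 to 109 in left legs, and 0.445 to 1.81 in right legs of BALB/c, against 57.1 to 92.9 in left legs. The log2 ratio changed by -6.84 in C57BL/6 and by -6.23 in BALB/c, each with an exact two-sided permutation p of 0.1, the smallest that 3 against 3 libraries allow. Over both strains, with legs permuted within strain, the change was -6.53 with an exact p of 0.005, the smallest that the 400 arrangements allow. Rpl3l made up 30.8% to 64.4% of the sum of both genes in right legs and 98.3% to 99.1% in left legs.

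The pair also changed its place among the other ribosomal proteins. By mean RPKM, Rpl3l ranked 70 of 89 members in right legs of C57BL/6 and 3 in left legs, and 68 in right legs of BALB/c and 2 in left legs. Rpl3 ranked 64 in right legs of C57BL/6 and 84 in left legs, and 71 in right legs of BALB/c and 80 in left legs. The sum of Rpl3l and Rpl3 was 0.403 to 0.830 times the median core subunit gene in right legs, against 5.90 to 6.84 times in left legs. No stretch of 50 bases of the Rpl3l transcript occurs in any other gene's transcripts in GENCODE vM21, whereas 85.6% of the 50-base stretches of Rpl3 occur in other genes, most of all in Rpl3-ps1. The sources used here do not say how reads that match several places were counted, and its part in the level of Rpl3 was not tested.

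Of the other members, some of the most abundant are given with their values. Rps26, a small subunit protein beside the exit of the messenger RNA channel, had 2195, 2009 and 1946 RPKM in right legs of C57BL/6, against 499, 598 and 625 RPKM in left legs, a change of 1.84 ± 0.12. Rpl4, a large subunit protein that lines the tunnel through which the new chain leaves, had 1124, 840 and 935 RPKM in right legs of C57BL/6, against 401, 407 and 425 RPKM in left legs, a change of 1.22 ± 0.12. Both rose, and neither showed overlap between the legs. In BALB/c the changes of Rps26 and Rpl4 were 1.86 ± 0.20 and 1.45 ± 0.19. Rps14, of the small subunit platform, averaged 1105 ± 209 RPKM in right legs of BALB/c and 298 ± 56.0 RPKM in left legs (SD, n = 3 each).

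Besides Rpl3, the largest rises were shared in part between the strains. Rps19, a small subunit protein whose human gene is mutated in Diamond-Blackfan anaemia, had 305, 253 and 240 RPKM in right legs of C57BL/6, against 61.5, 61.2 and 69.0 RPKM in left legs, a change of 2.04 ± 0.11 (SE, adjusted p = 4.8e-06 by limma). In BALB/c its values were 335, 448 and 255 RPKM in right legs, against 90.8, 80.6 and 59.4 RPKM in left legs, a change of 2.15 ± 0.24 (SE, adjusted p = 2.6e-04 by limma). Every right library of Rps19 lay above every left one. Rpl13a, known in human cells also as a translational repressor outside the ribosome, changed by 1.99 ± 0.12 in C57BL/6 and 2.23 ± 0.19 in BALB/c. Another 5 listed genes, 4 of them snoRNA genes, overlap the span of Rpl13a, as Snord43 and Snord83b overlap that of Rpl3. Reads were counted in exons on either strand, and whether reads of such genes entered these values was not tested. Rpl19, of the large subunit, changed by 2.07 ± 0.17 and 2.09 ± 0.17.

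Other large rises were among the top 6 in 1 strain. Rps27a, made as a fusion with ubiquitin, changed by 1.97 ± 0.13 in C57BL/6 and by 2.06 ± 0.17 in BALB/c. Rpl38, known in mice for a selective role in translating Hox messages, had 819, 1329 and 1068 RPKM in right legs of BALB/c, against 184, 235 and 236 RPKM in left legs, a change of 2.27 ± 0.22 (SE, adjusted p = 1.4e-04 by limma). In C57BL/6 Rpl38 changed by 1.67 ± 0.15. Rpl17, of the large subunit, changed by 1.58 ± 0.37 in C57BL/6, where right replicate 3 had 32.7 RPKM beside 94.0 and 82.6 RPKM, and by 2.11 ± 0.26 in BALB/c, and its call in C57BL/6 was lost after rescaling (adjusted p = 0.0756 by limma). Rpl21, of the large subunit, was low, at 5.05 ± 2.29 RPKM in right legs of C57BL/6 and 0.709 ± 0.236 RPKM in left legs (SD, n = 3 each). In BALB/c it stood at 0.998 ± 0.266 RPKM in right legs and 0.434 ± 0.219 RPKM in left legs (SD, n = 3 each). Rpl21 changed by 2.11 ± 0.33 in C57BL/6 and by 0.69 ± 0.21 in BALB/c, where it was not called after rescaling (adjusted p = 0.134 by limma). Its transcript shares 50-base stretches with 82 other genes.

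The stalk of the large subunit, which recruits and activates elongation factors, followed the rest. Rplp0, the base of the stalk, had 675, 583 and 571 RPKM in right legs of C57BL/6, against 211, 220 and 230 RPKM in left legs, a change of 1.46 ± 0.09. Rplp1 and Rplp2, which pair on that base, changed by 1.25 ± 0.12 and 1.44 ± 0.16 in C57BL/6. In BALB/c, Rplp0, Rplp1 and Rplp2 changed by 1.68 ± 0.22, 1.50 ± 0.20 and 1.80 ± 0.18. All 3 rose in both strains on both scales.

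Rpl15 stood below the block. This large subunit gene had 14.5, 11.3 and 13.6 RPKM in right legs of C57BL/6, against 9.35 to 10.7 RPKM in left legs, and was called higher as deposited, at 0.36 ± 0.11 (SE, adjusted p = 0.0169 by limma). After rescaling it was called lower, at -0.33 ± 0.12 (SE, adjusted p = 0.0447 by limma), so its direction in C57BL/6 depends on the scale. In BALB/c it was higher as deposited, at 0.74 ± 0.15, and not called after rescaling, at 0.24 ± 0.18.

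Members outside the core moved less evenly than the core. The 10 tested ones include Rps19bp1, which encodes no subunit, and Rps27rt, whose reads are nearly those of Rps27. Of these 10, 9 were higher and 1 lower in C57BL/6, with a median of 0.93. In BALB/c, 7 were higher and 1 lower, with a median of 1.25. After rescaling, 4 were higher and 1 lower in C57BL/6 and 5 and 1 in BALB/c, beside 28.2% and 21.8% of all tested genes higher in C57BL/6 and BALB/c, and 4 of 10 is not far from that share. The counts for core genes were 74 higher and 1 lower of 77 in C57BL/6 and 73 higher and 0 lower in BALB/c on that scale, and the single lower gene was Rpl15. The difference between copies and core genes was not tested.

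Named pairs of paralogue and main form show the range, and Rpl10l and Rpl39l, which were not tested, were listed at 0 and averaged 0.11 RPKM in right legs of C57BL/6. Rpl22l1, a paralogue of Rpl22, had 7.43, 13.4 and 7.84 RPKM in right legs of BALB/c, against 7.60, 7.31 and 7.57 RPKM in left legs, and its change of 0.28 ± 0.22 was not called, while Rpl22 changed by 1.51 ± 0.16. In C57BL/6 Rpl22l1 was called, at 0.94 ± 0.18, beside 1.13 ± 0.10 for Rpl22. Rpl7l1, a paralogue of Rpl7 known from assembly of the large subunit, changed by 0.76 ± 0.08 in C57BL/6 and 0.84 ± 0.12 in BALB/c, beside 1.56 ± 0.12 and 1.80 ± 0.18 for Rpl7. Neither Rpl22l1 nor Rpl7l1 was called in either strain after rescaling.

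The ratio of Rpl7l1 to Rpl7 was 0.0357 to 0.0493 in right legs of C57BL/6, against 0.0709 to 0.0758 in left legs, with no overlap. Rps27l, which p53 induces in human cells, changed by 0.94 ± 0.16 in C57BL/6 and by 2.01 ± 0.23 in BALB/c, beside 1.31 ± 0.16 and 1.83 ± 0.21 for Rps27. The strain difference of Rps27l, 1.07 ± 0.31, was not called (adjusted p = 0.0623 by limma). Rpl36al changed by 0.76 ± 0.17 in C57BL/6 and 1.52 ± 0.19 in BALB/c, beside 1.41 ± 0.12 and 1.72 ± 0.19 for Rpl36a. Rps27rt is listed at the place of Rps27 itself, chromosome 3 from 90016589 in mm9, with nearly the same reads, so it adds no separate measurement.

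Over the 83 tested members with the same transcript in both tables, the BALB/c and C57BL/6 changes correlated with Pearson r = 0.89 and Spearman rho = 0.69, and without Rpl3 and Rpl3l with r = 0.64 and rho = 0.67 over 81. These are across genes, which share libraries and are not independent replicates. The strain difference was tested in 1 fit over all 12 libraries. As deposited, limma called 0 members with a higher change in BALB/c and 1 with a lower one, Rpl29, against 1.76% and 4.33% of all tested genes. At an unadjusted p under 0.05 there were 12 higher and 4 lower, against 7.41% and 16.9% of all tested genes, and limma-voom on recovered reads called 0 in either direction.

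After rescaling, 2 members had a higher change in BALB/c, Rpl7a and Rps28, and 0 had a lower one, against 3.71% and 3.49% of all tested genes. At an unadjusted p under 0.05 there were 22 higher and 3 lower, against 13.7% and 12.1% of all tested genes. The BALB/c change was the larger one for 79 of 87 members as deposited and for 82 rescaled. Over all 14165 tested genes it was the larger one for 5163 as deposited and for 7070 rescaled. The median differences of the members were 0.29 and 0.48, against -0.14 and 0.00 for all tested genes. Members share libraries, so these counts are not independent. Rpl29 and Rps28 are listed with another transcript in each table. For Rpl3 the difference was -0.73 ± 0.21, which was not called (adjusted p = 0.0616 by limma). For Rpl3l the difference was -0.17 ± 0.47 (adjusted p = 0.852 by limma). Among members with the same transcript in both tables, 0 were called as deposited, and 1, Rpl7a, rescaled. Without right replicate 1 of C57BL/6, 5 members were called higher and 2 lower as deposited.

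**Figure D4:**
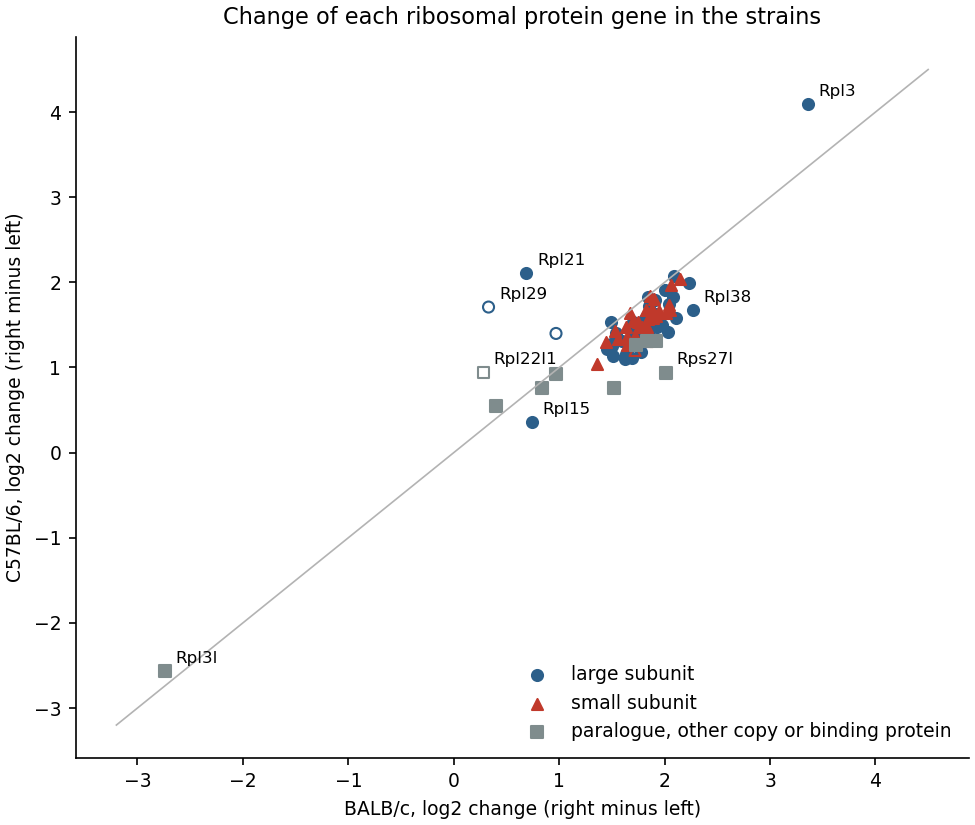
Log2 change (right minus left) of each tested member in BALB/c (x axis) and in C57BL/6 (y axis) as deposited; circles are large subunit genes, triangles small subunit genes and squares copies or binding proteins, open symbols mark genes listed with another transcript in each table, and the line marks equal change. Most members form 1 cluster below the line, Rpl3 and Rpl3l lie at opposite ends, at 4.09 and -2.57 in C57BL/6, and Rpl29 and Rpl21 lie above the line.

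Ribosomal proteins that carry other names rose as well. Fau, the precursor of the small subunit protein eS30, and Rack1, a scaffold on the small subunit, rose in both strains and on both scales. Fau averaged 182 ± 19.3 RPKM in right legs of C57BL/6 and 50.5 ± 7.28 RPKM in left legs, a change of 1.84 ± 0.13. Rack1 averaged 618 ± 74.1 RPKM in right legs of BALB/c and 203 ± 7.60 RPKM in left legs, a change of 1.60 ± 0.16 (SD, n = 3 each, SE for the change).

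The factors that build ribosomes had smaller median changes than the ribosomal proteins, a difference that was not tested. Over all tested genes, 63.6% were higher in C57BL/6 and 42.5% in BALB/c as deposited, and 28.2% and 21.8% after rescaling. Of 25 large subunit assembly factors, 25 were higher as deposited in C57BL/6 and 22 in BALB/c, with medians of 1.03 and 1.09. After rescaling, 15 of them were higher and 1 lower in C57BL/6 and 14 and 1 in BALB/c. Bop1, a factor of the PeBoW complex, changed by 1.74 ± 0.07 and 1.85 ± 0.13, and Eif6, which keeps new large subunits from joining early, by 1.44 ± 0.09 and 1.71 ± 0.13. Of 25 small subunit assembly factors, 25 and 23 were higher as deposited, with medians of 0.72 and 0.82, and 8 higher and 2 lower in C57BL/6 and 10 higher and 0 lower in BALB/c after rescaling. The 8 of 25 are near the background of 28.2% of all tested genes higher in rescaled C57BL/6. Rrp12, an export factor, changed by 1.54 ± 0.12 and 1.92 ± 0.13. These medians lie between those of the members and of all tested genes.

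Of 11 snoRNP core and nucleolar genes, 10 were higher in each strain as deposited, with medians of 0.91 in C57BL/6 and 1.05 in BALB/c. After rescaling, 4 of them were higher and 1 lower in C57BL/6 and 8 and 0 in BALB/c. The shares of all tested genes called higher were 63.6% and 42.5% as deposited, and 28.2% and 21.8% rescaled. Fbl, the methyltransferase of box C/D particles, averaged 11.3 ± 0.798 RPKM in right legs of C57BL/6 and 2.28 ± 0.817 RPKM in left legs (SD, n = 3 each), a change of 2.12 ± 0.19. Of 14 genes of RNA polymerase I and its factors, which transcribe ribosomal RNA, 12 were higher in each strain, with medians of 0.80 and 0.87. After rescaling, 5 of them were higher and 4 lower in C57BL/6, and 6 higher and 0 lower in BALB/c. The C57BL/6 counts are near the background on that scale, 28.2% higher and 26.4% lower. Ribosomal RNA itself was not measured, since the libraries were made from poly(A) RNA.

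Of 14 other genes whose messages have a TOP tract, 13 were higher in C57BL/6 and 11 in BALB/c as deposited, with medians of 0.94 and 1.19, and after rescaling 6 were higher and 2 lower in C57BL/6 and 7 and 0 in BALB/c. Eef1a1, the general form of elongation factor 1A, averaged 458 ± 63.0 RPKM in right legs of C57BL/6 and 18.6 ± 1.78 RPKM in left legs (SD, n = 3 each). It changed by 4.58 ± 0.12 in C57BL/6 and 3.39 ± 0.17 in BALB/c (SE, adjusted p = 4.0e-07 and 1.2e-05 by limma). Of 18 growth regulators, 13 and 9 were higher as deposited, with medians of 0.49 and 0.35, near those of all tested genes, and 6 higher and 6 lower in C57BL/6 and 5 higher and 3 lower in BALB/c after rescaling. These counts are near the shares of all tested genes, 63.6% and 42.5% higher as deposited, and 28.2% higher and 26.4% lower in C57BL/6 and 21.8% and 19.0% in BALB/c rescaled. Mtor, the kinase that drives translation of TOP messages, changed by 1.86 ± 0.09 in C57BL/6 and 0.82 ± 0.18 in BALB/c, and was not called in BALB/c after rescaling (adjusted p = 0.0975 by limma). Eif4ebp1, a translation repressor that MTOR inactivates, changed by 1.31 ± 0.07 and 1.91 ± 0.18.

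**Figure D5:**
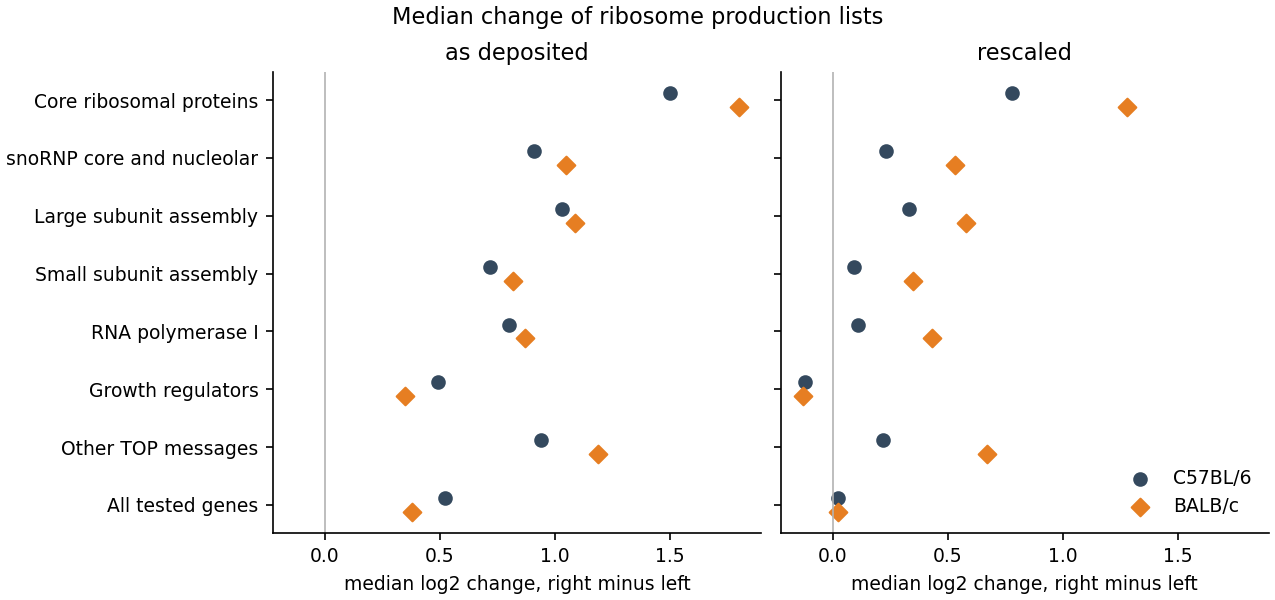
Median log2 change (right minus left) of the core ribosomal protein genes, of lists of ribosome production genes and of all tested genes, in C57BL/6 (dark circles) and BALB/c (orange diamonds), as deposited (left panel) and rescaled (right panel). The core genes stand highest, at 1.50 in C57BL/6 and 1.80 in BALB/c as deposited, assembly factors lie between 0.72 and 1.09, and all tested genes lie at 0.52 and 0.38.

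Markers of the cells in the sample moved between the legs as well. Muscle fibre markers (10 genes, among them Acta1 and Ckm) were detected throughout and summed to 78468 to 85969 RPKM in right legs of C57BL/6, against 132345 to 141359 RPKM in left legs, and to 62386 to 93838 RPKM in right legs of BALB/c, against 99007 to 127418 RPKM in left legs. Of these markers, 3 were higher and 6 lower in C57BL/6, and 3 were higher and 3 lower in BALB/c. Over all tested genes as deposited, 63.6% were higher and 8.56% lower in C57BL/6, and 42.5% and 7.67% in BALB/c. The 12 macrophage and monocyte markers were all higher in C57BL/6, and 10 of 12 were higher in BALB/c. Their sum was 92.4 to 186 RPKM in right legs of C57BL/6, against 9.85 to 13.3 RPKM in left legs, and 189 to 304 RPKM in right legs of BALB/c, against 63.4 to 107 RPKM in left legs. Of 8 fibroblast markers, 7 were higher in C57BL/6, and 2 were higher and 2 lower in BALB/c. After rescaling, 12 macrophage markers were higher in C57BL/6 and 8 in BALB/c, while fibroblast markers had 5 higher and 1 lower in C57BL/6 and 0 and 3 in BALB/c. The part of these cells in the rise of the ribosomal proteins was not tested.

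The 9 lymphocyte markers summed to 0.727 to 1.2 RPKM in right legs of C57BL/6, against 0.257 to 0.300 RPKM in left legs, and to 1.06 to 3.10 RPKM in right legs of BALB/c, against 0.332 to 0.552 RPKM in left legs. Of the 5 satellite cell markers, 2 were higher in each strain as deposited and 1 after rescaling. These counts are near or below the shares of all tested genes called higher, 63.6% and 42.5% as deposited and 28.2% and 21.8% rescaled. Of the 6 endothelial markers, 0 were higher and 2 lower in C57BL/6 and 0 and 1 in BALB/c, and all 6 were lower in both strains after rescaling. Schwann cell, adipocyte and erythroid lists had 0, 0 and 0 genes called in C57BL/6. In BALB/c the Schwann list had 1 higher and 2 lower of 6, and adipocyte and erythroid genes had 0 called. Without right replicate 2 of BALB/c, the library with the highest erythroid sum, 81 members were higher and 1 lower in that strain. Right replicate 1, with an erythroid sum of 12470 RPKM, stayed in that fit, and a fit without both was not run. Right replicate 3, with an erythroid sum of 399 RPKM, had a median member level of 204 RPKM, against 53.1 to 55.2 RPKM in the left legs. The part of blood in these changes was not tested.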

How the data were processed

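The authors deposited RPKM values, 1 table per strain. HOMER made them from reads in exons on either strand, 1 transcript a gene, with an mm9 annotation, per the file headers, whereas the column names say FPKM. HISAT2, DESeq2, HOMER and the builds GRCm38 and mm10 are named in the submitters' processing notes, and the sources used here do not say which build was aligned to. Each table has its own normalization, so levels were tested only within 1 table. Each library's total was estimated as the number that brought RPKM times length closest to whole reads. With that total, 99.38% to 99.80% of the values of a library, genes at 0 included, lay within 0.1 of a whole read. Since the totals were chosen this way, these shares are no separate check of them.

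Values were transformed to log2(RPKM + 0.5). Genes averaging 0.1 RPKM or more over the 6 libraries of a strain were tested two-sided with limma 3.58.1 in R 4.3.3 (eBayes with a trend), adjusted by Benjamini-Hochberg across every tested gene, with a threshold of 0.05. The strain difference was a contrast in 1 fit over 12 libraries. Members and lists were chosen with earlier results of these data known. Lists are given by counts and medians, without a test. The named members are Rpl3l and Rpl3, the 6 largest called changes per direction and strain on both scales, the 4 highest means per strain, the stalk, the paralogue pairs, the called strain differences (up to 3 per direction), and up to 2 called genes per direction and strain of each other list, of which examples are given; some are not reported here. The fits were tested on simulated data. Transcripts for the 50-base comparison came from GENCODE vM21. Alternatives were other pseudocounts, filters and scalings, a replicate block, no trend, a shared spread, limma-voom on recovered reads, and leaving out each library.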

Additional observations from a re-analysis of the deposited data

Results flagged for a closer look

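A test of the strain difference picked out 3 members. The change of Rpl29 in BALB/c minus that in C57BL/6 was -1.38 as deposited (limma adjusted p = 0.0127). After rescaling it was -0.85 and not called (limma adjusted p = 0.058). Rpl29 is listed with another transcript in each strain. It had 9, 5 and 4 reads in right legs of BALB/c, against 3, 3 and 1 in left legs. In C57BL/6 it had 228, 233 and 178 reads in right legs, against 49, 78 and 53 in left legs. At the low level of BALB/c, the added 0.5 RPKM makes the change look smaller. The fitted changes were 0.33 in BALB/c and 1.71 in C57BL/6, where right-to-left ratios of mean RPKM were 2.47 and 3.51. With a constant of 0.1, limma called 0 members with a lower change in BALB/c. The change of Rpl7a, listed with the same transcript in both, was 0.71 larger in BALB/c after rescaling (limma adjusted p = 0.0479) and 0.52 larger as deposited (adjusted p = 0.0912). The change of Rps28, listed with another transcript in each table, was 0.72 larger in BALB/c after rescaling (limma adjusted p = 0.0179) and 0.52 larger as deposited (adjusted p = 0.0654). With a replicate block on the rescaled values, neither Rpl7a (limma adjusted p = 0.111) nor Rps28 (limma adjusted p = 0.0562) was called.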

How the results depend on the processing

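Of 224 alternative values of the summary results, 192 stayed close to the reported value and 32 moved. Of 1015 alternative values of named genes, 976 kept direction and call, 29 lost the call, 6 gained it and 4 reversed. The 4 were Rpl15 in C57BL/6, at -0.33 with median-of-ratios and -0.31 with quantile scaling, and Rpl22l1 in BALB/c, at -0.21 and -0.29 with the same scalings. Members lower in C57BL/6 numbered 2 with median-of-ratios scaling, with quantile scaling and with the replicate block plus median-of-ratios scaling. Core subunits alone gave 0 lower in both strains as deposited, a set that leaves out Rpl3l, the only member lower on that scale. With median-of-ratios scaling, 1 core gene, Rpl15, was lower in C57BL/6. A higher change in BALB/c was called for 2 members with median-of-ratios scaling, 1 with quantile scaling and 1 among members of the same transcript with median-of-ratios scaling. A lower change was called for 2 with TPM scaling and for 0 with a filter at 1 RPKM, limma-voom, median-of-ratios or quantile scaling, a pseudocount of 0.1, and the same transcript on either scale.

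The median change above all tested genes in C57BL/6 was 0.75 with limma-voom, 0.74 with median-of-ratios scaling, 1.14 with no filter and 0.80 with a pseudocount of 0.1, and in BALB/c 1.15 with quantile scaling. The cause of these shifts was not tested. As a share of recovered reads, right minus left was 1.11 percentage points in C57BL/6 and 1.32 in BALB/c. As a share of summed RPKM it was 2.89 and 3.12. These are different measures, since reads, unlike RPKM, are not divided by transcript length.

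Leaving out 1 library gave 81 to 84 members higher in BALB/c, 85 in C57BL/6 and 1 lower in each as deposited, and with median-of-ratios scaling, combinations chosen after seeing the data, 70 to 79 and 71 to 79 higher and 1 to 2 lower. It gave 0 to 5 members with a higher change in BALB/c and 1 to 2 with a lower one: 5 and 2 without right replicate 1 of C57BL/6, 1 and 2 without right replicate 2 or left replicate 1 of BALB/c, and 1 higher without right replicate 1 of BALB/c. The log2 ratio of Rpl3l to Rpl3 stayed between -7.03 and -6.64 in C57BL/6, -6.69 and -5.68 in BALB/c, and -6.77 and -6.26 over both. The core-subunit and same-transcript restrictions were also chosen after seeing the data.

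Same-numbered right and left libraries of a strain correlated by 0.006 to 0.236, and differently numbered ones by -0.178 to 0.113. With 3 libraries per leg, these values cannot show whether the numbers pair the legs. With the replicate block, 86 members were higher and 1 lower in C57BL/6, 83 and 1 in BALB/c, and 0 had a higher and 1 a lower change in BALB/c. With the replicate block and median-of-ratios scaling together, added after seeing the data, 0 had a higher change in BALB/c and 1, Rpl29, a lower one, so Rpl7a (0.71, adjusted p = 0.111 by limma) and Rps28 (0.72, adjusted p = 0.0562 by limma) were not called. The value of Rpl29 in BALB/c rests on at most 9 reads a library, of another transcript than the one listed for C57BL/6.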

Other observations

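Elongation factor 1A, chosen after its values were seen, has a general form, Eef1a1, and a form of adult muscle and neurons, Eef1a2. Eef1a2 had 106, 110 and 101 RPKM in right legs of C57BL/6, against 213, 206 and 198 RPKM in left legs, a change of -0.96 ± 0.07 (SE, limma adjusted p = 1.9e-05). In BALB/c it had 115, 106 and 91.6 RPKM in right legs, against 197, 218 and 222 RPKM in left legs, a change of -1.03 ± 0.14 (SE, limma adjusted p = 6.9e-04). Eef1a1 rose in the same libraries, by 4.58 and 3.39. After rescaling, Eef1a2 fell by 1.67 in C57BL/6 and by 1.55 in BALB/c.

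The share of a core transcript's 50-base stretches found in other genes was unrelated in rank to its change, with Spearman rho of 0.08 in C57BL/6 and 0.07 in BALB/c over 77 genes. Of the 89 members, 85 shared at least 1 such stretch with another gene.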
